A study of Mus musculus with 19 samples.

Results

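Genes of the lysosome, 10 in all, were followed in single EPCAM+PLET1+ cells of the early mouse thymus. They are the cathepsins Ctsl, Ctsb, Ctsd, Ctss, Ctsh, Ctsz and Ctsc, the lysosomal membrane glycoproteins Lamp1 and Lamp2, and the protease inhibitor Cst3. They were chosen by name, with earlier results of these data known. All 10 are among the 54179 genes of the deposited count table, of which 21964 are protein-coding. The cells came from wild type C57BL/6 embryos, for which the labels give no treatment, at E10.5 (embryonic day), when the primordium is the third pharyngeal pouch, and at E12.5. They were sorted singly into 96-well plates, with 4 plates per stage. Plates carry letters (a through d for the E10.5 cells, and for the E12.5 cells a and c through e), and a plate was taken as the replicate. The labels do not say which embryos or litters a plate came from, so p values measure the spread between plates.

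Lysosomes are acidic compartments in which proteases break down proteins delivered by endocytosis and autophagy. Cathepsins L, B, S, H, Z and C are cysteine proteases and cathepsin D is an aspartic protease, while LAMP1 and LAMP2 are the abundant glycoproteins that line the lysosomal membrane. In cortical thymic epithelium cathepsin L is known for making the peptides that MHC class II molecules present to developing CD4 T cells. FOXN1 is the transcription factor that drives differentiation of thymic epithelial cells (TEC), and Foxn1 mRNA therefore served as a per-cell marker of that program.

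After limits on reads, features and mitochondrial share, 711 cells remained (356 at E10.5 and 355 at E12.5, 85 to 92 per plate), and plates held 14981265 to 20106286 reads. Levels are given in CPM, reads of a gene per 1000000 protein-coding reads, after summing the cells of one class on one plate. At E12.5, cells with Chga at 2000 CPM or more were called parathyroid (42 cells, 6 to 15 per plate), and the other 313 were called thymic. Thymic cells were divided into 169 with Foxn1 at 100 CPM or more (Foxn1 high) and 144 below it (Foxn1 low). At E10.5, 63 cells with at least 2 of 5 neural genes at 100 CPM or more were called neural, and the other 293 endoderm. Of the E12.5 cells under the Chga limit, 18 had Chga at 100 CPM or more, and 75 thymic cells had Foxn1 between 50 and 200 CPM, so the Foxn1 classes are ranges on a scale, not types. Foxn1 averaged 239 CPM in thymic sums, 0.61 CPM in endoderm and 1.4 CPM in parathyroid sums. Pth, the parathyroid hormone gene, averaged 11531 CPM in parathyroid and 11.3 CPM in thymic sums. Epcam was present in all these classes, at 1145 CPM in parathyroid, 518 CPM in endoderm, 407 CPM in thymic and 144 CPM in neural sums. Plate a of E10.5 held few molecules (median 2598 per cell, against 8614 to 10547 on the other E10.5 plates).

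Of the 10 genes, 9 were read in at least 39 cells. Cst3 had 115639 reads over all cells kept, Ctsl 38540, Lamp2 15169, Ctsz 15086, Lamp1 14125, Ctsb 9171, Ctsd 7024, Ctsh 2132 and Ctsc 1938. The order differed in molecules, where amplification copies are collapsed. Ctsl had 4778 molecules, Cst3 1575, Lamp2 994, Lamp1 990, Ctsb 642, Ctsd 619, Ctsz 513, Ctsc 90 and Ctsh 78. Ctss, the cathepsin of professional antigen-presenting cells, had 1 read in 1 cell. The rarer genes came from few cells, 39 for Ctsh and 54 for Ctsc, against 523 for Ctsl.

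The genes lie on several chromosomes (GRCm38, GENCODE vM21 annotation, which is a later release than the vM18 annotation used for counting). Ctsl spans chr13:64359337-64370890 on the minus strand, and 1742 of its exon bases are also exon bases of an antisense gene, Gm47123. Whether counting used the strand is not stated in the sources used here, so reads of Ctsl and of this partner may not be separable. Lamp2 is at chrX:38401357-38456454 (minus strand), Ctsh at chr9:90054152-90076089 (plus) and Cst3 at chr2:148871722-148875692 (minus), and none of these 3 overlaps the exons of another annotated gene. Ctsz, at chr2:174427493-174439039 (minus), shares 10 exon bases with Nelfcd on the opposite strand. Ctsb (chr14:63122462-63145923, plus) shares 774 exon bases with Fdft1 and Lamp1 (chr8:13159161-13175338, plus) shares 249 with Grtp1, both on the opposite strand. Ctsd (chr7:142375911-142388038, minus) shares 808 with Gm49369 on the same strand. Ctsc is at chr7:88278085-88310888 and Ctss at chr3:95526786-95556403, both on the plus strand.

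Sequences around annotated RefSeq starts of these genes were also examined. RefSeq windows of 300 bases (GRCm38.p6, 250 before and 50 after the start) were matched for 8 of the 10 genes, the exceptions being Ctsb and Ctsh. They were searched on both strands for GACGC, a core motif bound by FOXN1, for CACGTG, the E-box core, and for the exact 10-base palindrome of the CLEAR element, which TFEB binds in lysosomal genes and which contains CACGTG at its centre. CLEAR is a degenerate consensus, and other forms of it were not searched. The 250 bases before the start are printed for the 2 genes that rose in the thymic lineage, Ctsl (chr13:64370521-64370770, minus strand) and Lamp2 (chrX:38456461-38456710, minus), for Ctsz, which moved the other way (chr2:174439040-174439289, minus), and for Ctsd (chr7:142387828-142388077, minus) and Lamp1 (chr8:13158911-13159160, plus), for which no difference passed the test. Each runs 5′ to 3′ on the gene's strand, with CACGTG and GACGC, or its reverse complement GCGTC, in capitals. The RefSeq starts of Ctsl and Ctsd differ from the outer ends of the GENCODE genes given above. The Ctsl stretch lies wholly inside its GENCODE gene and most of the Ctsd stretch inside its own, so for these genes it is the sequence before 1 annotated start, and which start these cells use was not tested.
Ctsl: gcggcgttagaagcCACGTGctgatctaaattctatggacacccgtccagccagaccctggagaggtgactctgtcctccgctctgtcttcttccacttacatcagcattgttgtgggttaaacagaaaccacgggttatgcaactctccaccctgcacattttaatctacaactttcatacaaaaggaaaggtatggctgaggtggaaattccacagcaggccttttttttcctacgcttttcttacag
Lamp2: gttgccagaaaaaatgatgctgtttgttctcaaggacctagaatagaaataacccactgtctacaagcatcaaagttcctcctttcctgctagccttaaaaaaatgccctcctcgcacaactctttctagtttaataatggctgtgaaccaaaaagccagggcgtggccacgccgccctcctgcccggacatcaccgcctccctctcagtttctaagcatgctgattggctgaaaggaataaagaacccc
Ctsz: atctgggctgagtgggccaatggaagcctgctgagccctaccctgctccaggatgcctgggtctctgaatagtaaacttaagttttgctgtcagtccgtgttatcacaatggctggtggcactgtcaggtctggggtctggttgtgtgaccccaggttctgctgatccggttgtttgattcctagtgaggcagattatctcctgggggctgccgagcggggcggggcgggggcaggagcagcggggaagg
Ctsd: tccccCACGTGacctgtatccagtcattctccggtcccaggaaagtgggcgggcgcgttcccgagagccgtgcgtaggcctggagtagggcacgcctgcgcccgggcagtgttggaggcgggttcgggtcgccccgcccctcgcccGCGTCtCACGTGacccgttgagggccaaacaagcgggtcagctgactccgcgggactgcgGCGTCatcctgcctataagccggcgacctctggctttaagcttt
Lamp1: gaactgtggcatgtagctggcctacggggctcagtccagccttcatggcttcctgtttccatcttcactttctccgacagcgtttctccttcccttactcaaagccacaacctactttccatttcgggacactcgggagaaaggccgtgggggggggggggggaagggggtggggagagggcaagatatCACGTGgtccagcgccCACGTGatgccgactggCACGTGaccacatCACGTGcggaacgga

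The Lamp1 window held 4 copies of CACGTG, the Ctsd window 2 copies with 3 of GACGC, and the Ctsl window 1 copy of CACGTG and none of GACGC. Neither motif was in the windows of Lamp2, Ctsz, Ctsc, Cst3 or Ctss, and none of the 8 windows held the exact CLEAR palindrome. Among all 32851 windows of the same length, 27.2% held GACGC, 7.15% held CACGTG and 0.326% held the exact CLEAR palindrome. A match describes letters in a window and is not evidence of binding, and no match says only that the letters are not in it.

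The first comparison asked which of the genes differed between E10.5 and E12.5, over all cells sorted. Ctsl, Lamp2 and Ctsh were higher at E12.5, and no gene of the 10 was lower by the test. Ctsl rose from 53.5, 58.9, 55.3 and 55.1 CPM on the E10.5 plates to 698, 701, 439 and 404 CPM on the E12.5 plates. The lowest E12.5 plate was thus several times the highest E10.5 plate. The log2 fold change of Ctsl was 3.22 ± 0.24 (SE), or 9.33-fold (95% interval 6.52 to 13.4), with an adjusted p of 2.21e-05 (edgeR quasi-likelihood test, Benjamini-Hochberg adjustment, 4 plates per stage). Lamp2 rose from 39.7 ± 16.8 to 204 ± 65.3 CPM (SD, n = 4 plates), a log2 fold change of 2.31 ± 0.31 (adjusted p = 0.00101, edgeR). Ctsh, an aminopeptidase, rose from 3.79 ± 1.66 to 30.6 ± 15.5 CPM, a log2 fold change of 2.92 ± 0.56 (adjusted p = 0.00957, edgeR). With the plate letter as a replicate block, which kept only plates a, c and d of each stage, the value for Ctsh was 3.13. Its adjusted p was 0.119 (edgeR). For each of the 3 genes the 4 E12.5 plates lay above the 4 E10.5 plates. A two-sided exact permutation test gave p = 0.029, the smallest that 4 plates against 4 allow. The share of all genes whose plates stood apart in this way is not given, here or in the comparisons below.

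These were 3 of the 9 genes tested, and of all 11499 genes tested 6.24% passed an adjusted p of 0.05 (437 higher and 281 lower at E12.5). Ctss had too few reads to be tested. For the remaining 6 the 95% intervals of the log2 fold change included 0. They were -0.37 to 1.13 for Ctsb, -0.64 to 0.64 for Ctsd, -0.79 to 0.43 for Lamp1, -0.31 to 0.81 for Cst3 and -0.50 to 4.48 for Ctsc, and Ctsz had a log2 fold change of 0.25 (adjusted p = 0.74, edgeR). The interval of Ctsc is wide and includes large increases. In bulk sums such as these, fewer cells of a type and less RNA per cell cannot be told apart, so the same contrast was made within classes.

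**Figure D1:**
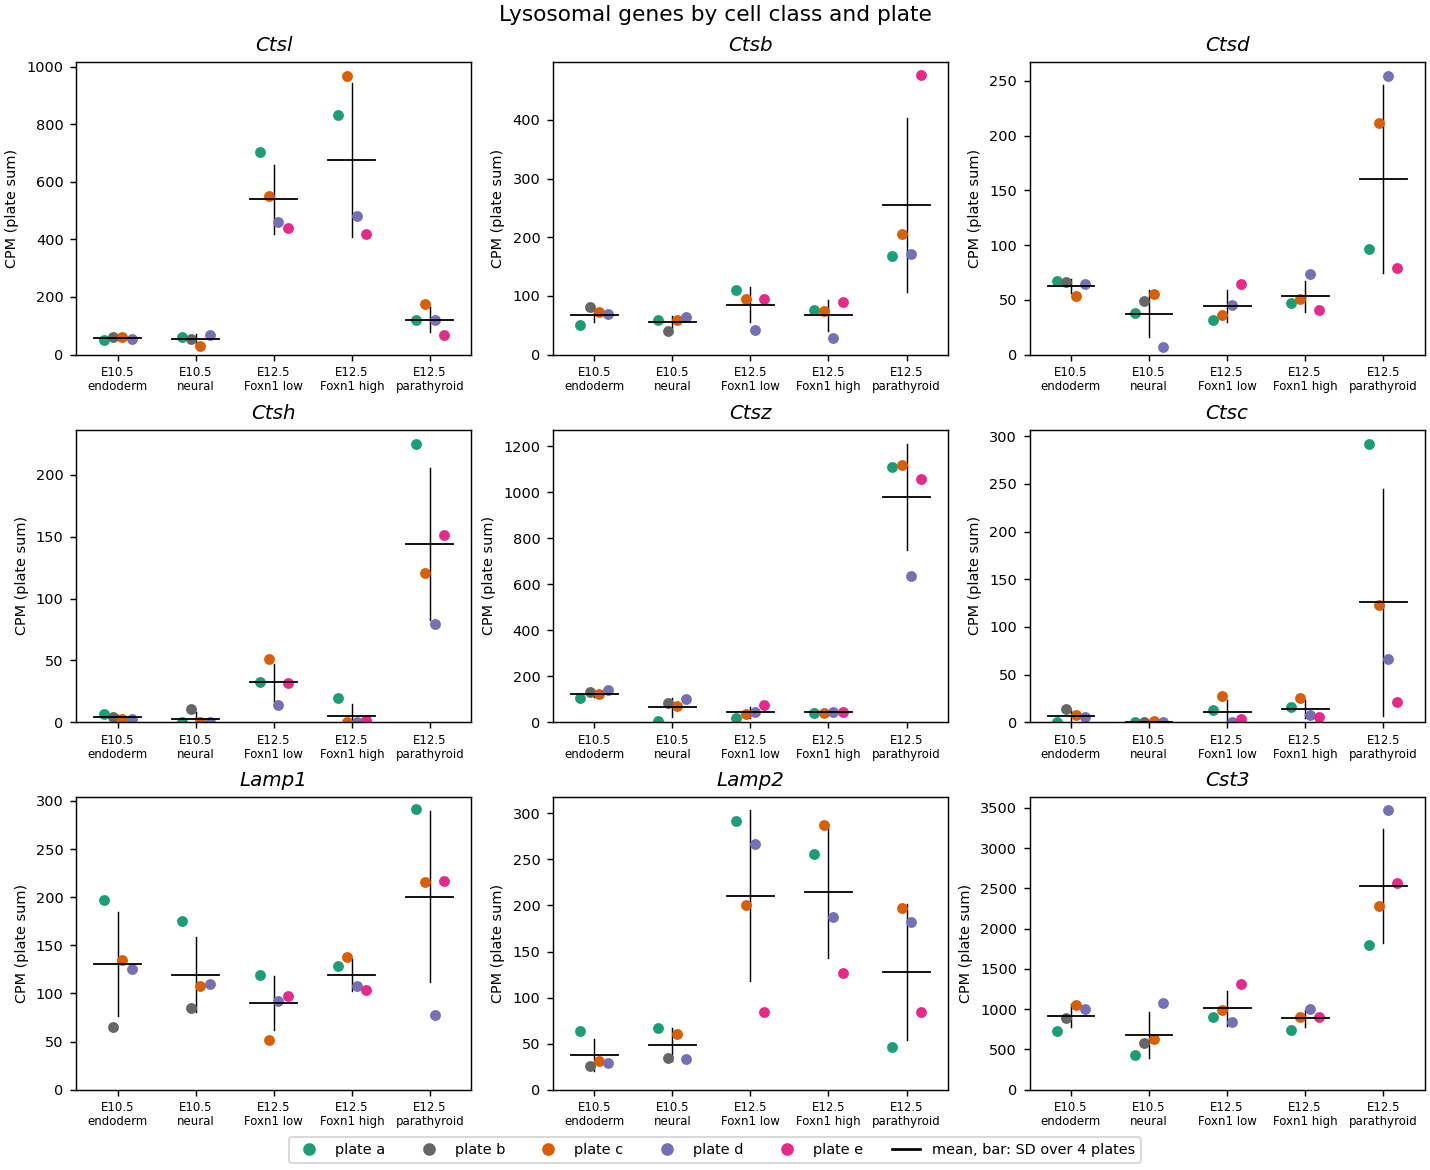
Levels of 9 lysosomal genes by cell class. Each point is 1 plate (CPM of the summed reads of that class, linear axis from 0, a separate axis for each gene), the horizontal line is the mean and the bar the SD over 4 plates; Ctsl and Lamp2 are high in both Foxn1 classes, while the other 7 genes have their highest means in parathyroid cells.

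Thymic cells of E12.5 were then compared with endoderm of E10.5, which leaves out the parathyroid cells of E12.5 and the neural cells of E10.5. The neural rule was not applied at E12.5, where 3 thymic cells met it and were kept. Ctsl and Lamp2 were again higher and Ctsz was lower in thymic cells, and the Ctsh difference no longer passed. Ctsl was at 52.0, 59.9, 62.0 and 52.8 CPM in endoderm and at 777, 795, 471 and 428 CPM in thymic cells. The groups stood far apart, and within E12.5 plates a and c stood above d and e in reads. The log2 fold change was 3.39 ± 0.25 (95% interval 2.84 to 3.94, or 7.16-fold to 15.3-fold; edgeR adjusted p = 2.56e-05). Counted as molecules, with amplification copies collapsed, Ctsl was at 166 ± 41.5 CPM in endoderm and 1920 ± 217 CPM in thymic cells (molecules scaled like reads; SD, n = 4 plates), and the lowest thymic plate (1609) was above the highest endoderm plate (216). Thymic plates a, c, d and e were at 2045, 2089, 1609 and 1935 CPM in molecules, so plate e stood near a and c there.

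Ctsl was also present in more cells. Of 313 thymic cells 91.4% held at least 1 Ctsl molecule in the first run, against 44.4% of 293 endoderm cells and 39.7% of 63 neural cells. After each cell was thinned to 1000 molecules, which left out 4 thymic, 21 endoderm and 4 neural cells, the shares were 74.4%, 14.3% and 15.3%. The thinned share of thymic cells thus stood well above those of both E10.5 classes, which were close to each other.

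Lamp2 was at 63.2, 25.6, 31.6 and 29.6 CPM in endoderm and at 271, 251, 227 and 109 CPM in thymic cells. The groups did not overlap, although plate e was lower than the other E12.5 plates. The log2 fold change was 2.50 ± 0.33, or 5.68-fold (edgeR adjusted p = 0.00123). Lamp1, its close relative in the same membrane, was at 131 ± 54.0 CPM in endoderm and 107 ± 11.9 CPM in thymic cells. Its log2 fold change was -0.29 (95% interval -0.95 to 0.36; edgeR adjusted p = 0.714).

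Ctsz, a carboxypeptidase, was at 104, 131, 121 and 139 CPM in endoderm and at 30.0, 37.8, 44.2 and 57.5 CPM in thymic cells. Every thymic plate was below every endoderm plate (two-sided exact permutation p = 0.029). The log2 fold change was -1.55 ± 0.34 (95% interval -2.30 to -0.80; edgeR adjusted p = 0.024), a level 2.93-fold lower. The call was near the threshold. It was lost when plate b, c or d of E10.5, or plate a, c or d of E12.5, was left out, with log2 fold changes of -1.58 to -1.37 and adjusted p of 0.058 to 0.0684. It was also lost with a replicate block, which kept only plates a, c and d of each stage (-1.78, adjusted p = 0.0905). The same held when 1 neural gene sufficed to call a cell neural (-1.42, adjusted p = 0.0614). Nelfcd, the overlapping gene on the opposite strand, was at 119 ± 25.3 CPM in endoderm and 62.9 ± 22.8 CPM in thymic cells, and its part in the result was not tested.

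The called genes were 3 of 9, against 5.3% of all 11152 genes tested. Ctsh was at 4.08 ± 1.59 CPM in endoderm and 16.8 ± 7.84 CPM in thymic cells, and its log2 fold change of 2.02 ± 0.65 had an adjusted p of 0.119 (edgeR), against 0.0194 with DESeq2. Although Ctsh was not called, its plates did not overlap either (2.81 to 6.21 against 7.14 to 24.9 CPM, two-sided exact permutation p = 0.029). Cst3, which encodes the secreted inhibitor cystatin C, was at 920 ± 143 and 934 ± 108 CPM, with a log2 fold change between -0.54 and 0.54 (95% interval). Ctsb was at 68.1 ± 13.1 and 74.7 ± 27.0 CPM (95% interval -0.72 to 0.90), and Ctsd at 63.0 ± 6.29 and 48.8 ± 8.06 CPM (95% interval -1.06 to 0.31). Fdft1, which overlaps Ctsb, was at 27.5 ± 5.38 and 29.1 ± 1.67 CPM. Ctsc, the dipeptidyl peptidase that activates granule proteases, was low in both classes, at 6.72 ± 5.54 and 12.4 ± 10.8 CPM.

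**Figure D2:**
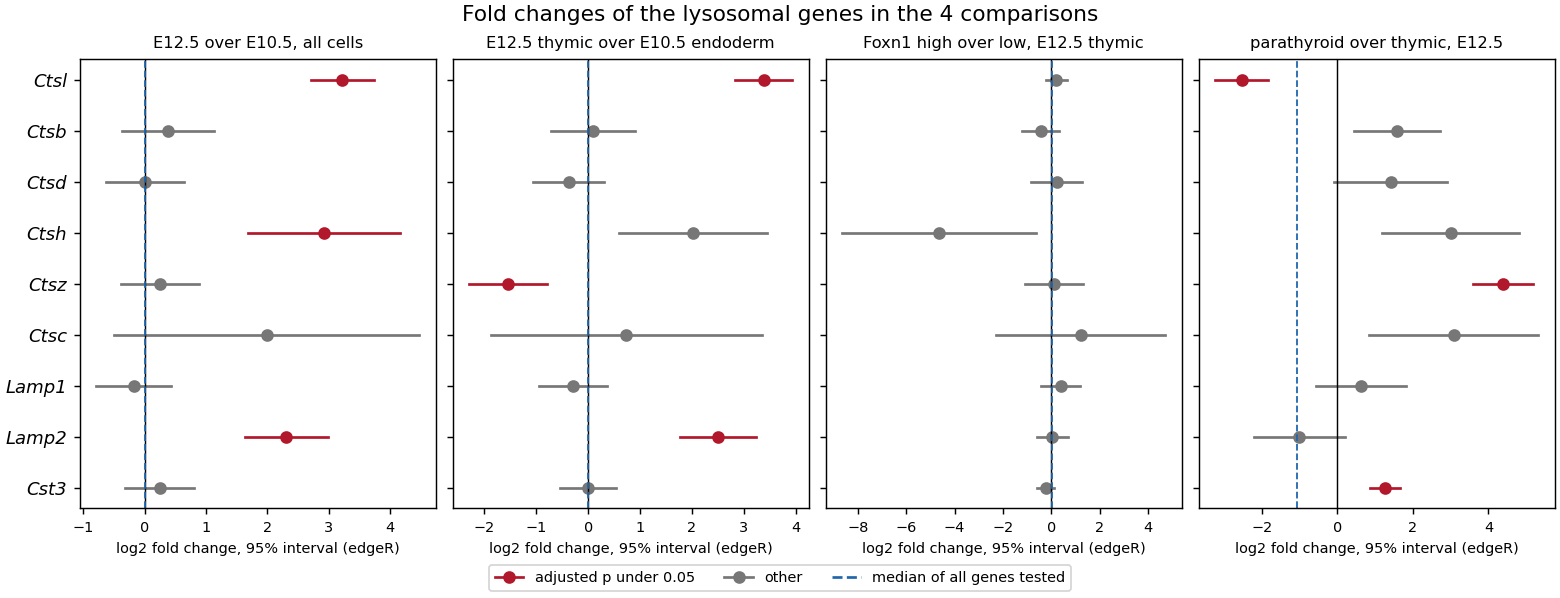
Log2 fold changes with 95% intervals (edgeR) of 9 lysosomal genes in 4 comparisons, with a separate horizontal axis for each. Red marks an adjusted p under 0.05 and the dashed line the median of all genes tested; Ctsl is far above 0 in both comparisons with E10.5, near 0 between the Foxn1 classes and below 0 in parathyroid cells.

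The next question was which of the genes rose with Foxn1 from cell to cell at E12.5, and which were at similar levels across the thymic lineage. No gene passed an adjusted p of 0.05 between Foxn1-high and Foxn1-low sums with edgeR and the plate as a block. That was 0 of the 9 lysosomal genes tested and 0.0% of all 9958. At an unadjusted p under 0.05 there were 319 genes, and 1 of the 9 was among them, against 4 of 7 FOXN1 targets. DESeq2 called 90 genes, Ctsh among them, and edgeR on molecules called 2, Ccl25 and Fn1. So few calls among known targets limit what this split can show for the lysosomal genes.

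Ctsl was at 702, 551, 462 and 439 CPM in Foxn1-low cells of plates a, c, d and e, and at 832, 968, 480 and 420 CPM in Foxn1-high cells of the same plates. It was higher in Foxn1-high cells on 3 of 4 plates, and the difference between plates exceeded that between the classes. The log2 difference was 0.21 ± 0.18 (95% interval -0.22 to 0.64; edgeR adjusted p = 0.998), and it was 0.02 without plate c. Both Foxn1 classes were far above the endoderm mean of 56.7 CPM. In Foxn1-low cells, which include 68 with no Foxn1 read, Ctsl was at 538 ± 120 CPM. In those 68 cells the FOXN1 targets Prss16 and Psmb11 were at 781 ± 169 and 526 ± 111 CPM. As a group, the cells without a Foxn1 read thus held reads of FOXN1 targets, and how many single cells did is not given here.

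From cell to cell, the Spearman correlation of Ctsl with Foxn1 averaged 0.16 over the 4 plates (0.085 to 0.237). Of the 4395 genes read in at least 20% of thymic cells, 1.21% had a higher mean. Reference genes of the early cortex measured alike were Ccl25 and Prss16, both at 0.23, Psmb11 at 0.20, Dll4 at 0.17 and Cxcl12 at 0.13, so that Ctsl lay within their range. All of these are weak correlations in sparse counts, over 313 cells that share 4 libraries, and they are given as descriptions. Over 4 ranges of Foxn1, Ctsl was at 520 ± 217 CPM in cells without a Foxn1 read, 537 ± 83.2 CPM above 0 and under 100 CPM, 664 ± 316 CPM from 100 to under 300 CPM, and 711 ± 272 CPM at 300 CPM or more (SD, n = 4 plates). The SD is the spread between plates, which all 4 ranges share. From cells without a Foxn1 read to those at 300 CPM or more, Ctsl was higher on 4 of 4 plates. On plates a, c, d and e it went from 739, 665, 388 and 287 to 998, 889, 501 and 459 CPM. No plate rose in order over the 4 ranges. At Foxn1 above 0 and under 100 CPM, Ctsl was at 658, 467, 513 and 511 CPM. At Foxn1 from 100 to under 300 CPM it was at 711, 1091, 456 and 397 CPM. The edgeR log2 difference between the lowest and the highest range was 0.47 and did not pass the adjusted test. Prss16, a thymus-specific serine protease and FOXN1 target, went from 781 ± 169 to 1522 ± 331 CPM between the lowest and the highest range.

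Lamp1 was higher in Foxn1-high cells on 4 of 4 plates, at 90.0 ± 28.1 CPM in Foxn1-low and 119 ± 16.3 CPM in Foxn1-high cells. Most of this was on plate c, where Lamp1 went from 51.9 to 138 CPM. On plates a, d and e it went from 119, 91.7 and 97.0 to 128, 108 and 103 CPM. Its log2 difference of 0.40 (95% interval -0.41 to 1.20; edgeR adjusted p = 0.998) was not beyond the spread between plates. Over the 4 Foxn1 ranges the Lamp1 mean rose in order. Lamp1 was higher at Foxn1 of 300 CPM or more than without a Foxn1 read on 4 of 4 plates. On plates a, c, d and e it went from 95.9, 38.4, 84.5 and 85.4 to 153, 142, 94.2 and 112 CPM. Plate c rose in order over the ranges, and plates a, d and e did not. The difference between the lowest and the highest range did not pass the adjusted test. The mean correlation of Lamp1 with Foxn1 was 0.10 (0.069 to 0.139), and 7.74% of the genes compared had a higher one. Lamp2 had similar means in the classes, at 211 ± 92.6 and 214 ± 71.9 CPM, with a log2 difference of 0.05 (95% interval -0.58 to 0.68) and a mean correlation of 0.06. Single plates moved both ways, from 292, 200, 266 and 84.2 CPM in Foxn1-low cells of plates a, c, d and e to 256, 288, 187 and 127 CPM. Its level was therefore above endoderm in both Foxn1 classes, with no difference between them that could be detected. Cst3 was at 1010 ± 214 and 887 ± 107 CPM (95% interval -0.57 to 0.12), and Ctsz at 42.5 ± 23.8 and 42.3 ± 3.04 CPM. Ctsb was lower in Foxn1-high cells on 4 of 4 plates, at 84.9 ± 30.2 and 66.8 ± 26.9 CPM, with a log2 difference of -0.43 that did not pass, and its mean correlation with Foxn1 was 0.0032, above 0 on 2 of 4 plates. Ctsd was at 44.5 ± 14.7 and 53.2 ± 14.4 CPM (95% interval -0.83 to 1.29), with a mean correlation of 0.02 in reads and 0.12 in molecules. Ctsc averaged 10.9 and 13.7 CPM (95% interval -2.29 to 4.73), and its mean correlation was 0.10 (-0.128 to 0.240), from reads in 7.99% of the cells. None of these differences passed the test.

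**Figure D3:**
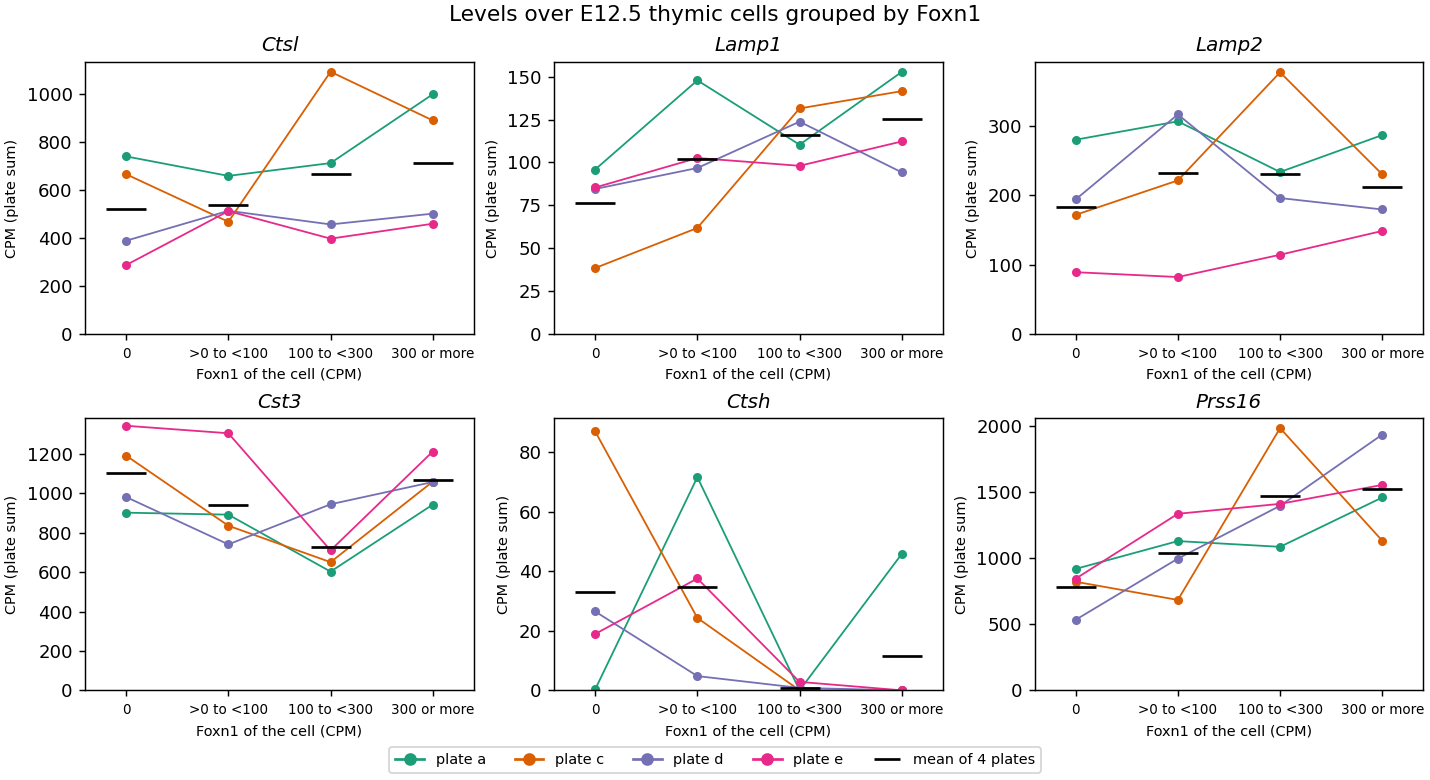
Levels of 5 lysosomal genes and of Prss16 in E12.5 thymic cells grouped by the Foxn1 level of the cell. Each line joins the summed CPM of 1 plate over 4 Foxn1 ranges (vertical axes linear from 0), and black bars are means of 4 plates. The Ctsl mean goes from 520 to 711 CPM with wide spread between plates, but no single plate rises in order, and Lamp2 shows no order.

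Ctsh had the opposite sign, without passing the adjusted test. It was at 32.6, 50.9, 13.7 and 31.5 CPM in Foxn1-low cells of plates a, c, d and e, and at 19.3, 0, 0.383 and 1.78 CPM in Foxn1-high cells. It was lower on 4 of 4 plates, with a log2 difference of -4.65 ± 1.71 (95% interval -8.66 to -0.64; edgeR unadjusted p = 0.0287, adjusted p = 0.998). DESeq2 gave -4.76 with an adjusted p of 0.0127. The mean correlation with Foxn1 was -0.15, and 99.5% of the genes compared had a higher one, although Ctsh was read in only 6.07% of thymic cells and the genes compared in at least 20%.

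Ctsh reads came from few cells, and many of those cells carried keratin and claudin genes of the medullary progenitor list. Among the genes most like Ctsh over thymic cells were Krt5, Krt17, Por and Hspb1, at mean correlations of 0.28 to 0.24. Krt5 and Krt17 are keratins of medullary thymic epithelium and other basal epithelia. Among 45 thymic cells with at least 2 of Krt5, Krt17 and Cldn4 at 100 CPM or more, 13 held Ctsh reads, and they held 76.1% of all thymic Ctsh reads (715 reads). Of the other 268 thymic cells 6 held the remaining 225 reads, with 107 reads in 4 of 122 Foxn1-low cells and 118 reads in 2 of 146 Foxn1-high cells. The plate sums were 89.2 ± 60.8 CPM in the 45 cells and 4.55 ± 6.46 CPM in the rest, without overlap (29.3 to 172 against 0 to 14.1 CPM). Within the 45 cells, 654 reads were in 10 of the 22 Foxn1-low cells and 61 reads in 3 of the 23 Foxn1-high cells. Outside the 45 cells, the reads of the Foxn1 classes were thus near equal, and the fitted log2 difference was -1.44 and did not pass.

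The genes most like Ctsl over thymic cells were Ccl25, Psmb11, Krt18, Plcd1 and Krt8, with mean within-plate correlations of 0.52, 0.50, 0.50, 0.48 and 0.43. Ccl25 encodes a chemokine that attracts thymocyte progenitors and Psmb11 a proteasome subunit of cortical TEC, and both are in the FOXN1 target list. Krt8 and Krt18 are keratins of simple epithelia. For Cst3 the highest correlations were lower, from 0.22 for RP23-92G13.4 to 0.18 for Cr1l, with Clu at 0.19.

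Parathyroid cells, which arise from the same pouch and were sorted by the same gate, served as the contrast within E12.5. They had more Ctsz and Cst3 and less Ctsl than the thymic cells of the same plates. Ctsz was at 1112, 1118, 637 and 1059 CPM in parathyroid cells of plates a, c, d and e, against 30.0 to 57.5 CPM in thymic cells. Every parathyroid sum was over 10 times every thymic sum. The log2 difference was 4.39 ± 0.36, or 20.9-fold (95% interval 12.1 to 36.2; edgeR with plate as a block, adjusted p = 5.69e-05). One cell held 24.0% to 46.2% of the parathyroid Ctsz reads of its plate, and 66.7% of 42 parathyroid cells held a Ctsz molecule in the first run against 11.8% of 313 thymic cells (51.2% and 4.21% after thinning to 1000 molecules). Nelfcd, which overlaps Ctsz, was at 228 ± 162 CPM in parathyroid cells.

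Ctsl was at 121, 174, 120 and 67.0 CPM in parathyroid cells, below the 428 to 795 CPM of thymic cells on every plate. The log2 difference was -2.53 ± 0.32 (95% interval -3.24 to -1.82; edgeR adjusted p = 0.00152), a level 5.78-fold lower. The parathyroid level was between those of endoderm and thymic cells. Cst3 was at 1800, 2284, 3478 and 2570 CPM against 934 ± 108 CPM in thymic cells, a log2 difference of 1.25 ± 0.18 (95% interval 0.86 to 1.65; edgeR adjusted p = 0.00262). It did not pass with DESeq2 (adjusted p = 0.0524). These 3 were called of 9 tested, against 2.88% of all 9838 genes (112 higher and 171 lower). The share called higher was 39.6%, and it was 51.7% with DESeq2 size factors in edgeR and 21.6% without the block. The median log2 difference of all genes tested was -1.06, and relative to it Ctsl stood at -1.47, Ctsz at 5.45 and Cst3 at 2.32. Over genes at a mean of 50 CPM or more the median was -0.40, so the position of Ctsl relative to other genes depends on which are counted, while its sign does not. With both classes on each of 4 plates, an exact permutation test within plates cannot reach a p under 0.05, so none is given.

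Of the 6 other genes tested, Ctsh, Ctsc, Ctsb and Ctsd were higher in parathyroid cells on 4 of 4 plates, without passing the test. Ctsh was at 225, 121, 79.3 and 152 CPM against 16.8 ± 7.84 CPM in thymic cells, a log2 difference with a 95% interval of 1.18 to 4.81 and an adjusted p of 0.0947 (edgeR). Ctsc was at 292, 123, 66.1 and 20.7 CPM against 12.4 ± 10.8 CPM, a log2 difference of 3.08 ± 1.02 (edgeR adjusted p = 0.151). Few cells carried these reads, since 1 cell held 39.7% to 65.6% of the parathyroid Ctsh reads of its plate and 38.0% to 73.2% of the Ctsc reads. Ctsb was at 255 ± 148 CPM (log2 difference 1.58 ± 0.51, edgeR adjusted p = 0.148) and Ctsd at 160 ± 86.1 CPM (1.41 ± 0.68, adjusted p = 0.317). With DESeq2, Ctsh, Ctsb and Ctsc passed, and with molecules in edgeR all 4 did, where 1863 and 617 genes in all passed against 283 in the reported fit. Ctsh also passed without limits on cells (adjusted p = 0.0387), with cells thinned to equal reads (adjusted p = 0.0366) and without the block (adjusted p = 0.0312). Lamp1 was at 201 ± 89.1 CPM, and its log2 difference of 0.63 did not pass (edgeR adjusted p = 0.612).

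Lamp2 in parathyroid cells was at 46.8, 197, 182 and 84.8 CPM, against 271, 251, 227 and 109 CPM in thymic cells of the same plates. It was lower in parathyroid cells on 4 of 4 plates, by the most on plate a, without passing the test. The parathyroid mean of 128 ± 73.4 CPM lay between the 37.5 ± 17.3 CPM of endoderm and the 215 ± 72.6 CPM of thymic cells. Plate a was below the highest endoderm plate (63.2 CPM), and parathyroid cells were not tested against endoderm. The log2 difference between parathyroid and thymic cells was -1.01 ± 0.55 (95% interval -2.22 to 0.20, edgeR adjusted p = 0.384). That was close to the median of all genes (0.05 relative to it) but below the median of -0.40 over genes at 50 CPM or more.

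Markers of blood cells were measured beside these results, since cathepsins S, C and Z are known in macrophages. The 10 macrophage and myeloid genes summed to 0.208 to 5.33 CPM in thymic and 0.0986 to 1.45 CPM in endoderm sums, and to 0 to 375 CPM in parathyroid sums, where 5 of the 10 were read. The high sum was from 1 cell of plate a with Chga at 12593 CPM and 491 reads of Tyrobp, 114 of the pan-leukocyte gene Ptprc and 95 of Fcer1g. It had 0 reads of the macrophage genes Csf1r, Aif1, Lyz2, C1qa, C1qb and Adgre1. Of the 6 lymphoid genes, 4 were read in parathyroid sums with this cell and 1 without it. This cell held the only Ctss read, 212 Ctsc reads and 531 Ctsz reads. Without it the parathyroid sums of the macrophage and myeloid list were 0 to 1.23 CPM, Ctsc was at 109 ± 89.3 CPM, and plate a stood at 1036 CPM for Ctsz. Without this cell the log2 difference of Ctsz was 4.36 (edgeR adjusted p = 5.05e-05) and that of Ctsc 2.98 (adjusted p = 0.168), both near the values with it.

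Genes of the wider lysosome were measured as a setting for the 10, from lists chosen with earlier results of these data known. Between thymic cells and endoderm, 0 of 7 other lysosomal proteases passed the test, 1 of 23 hydrolases and activators, 1 of 12 other membrane proteins, 0 of 14 V-ATPase subunits, which acidify the lysosome, and 1 of 14 sorting and regulatory genes, beside 5.3% of all genes tested. The membrane protein gene Laptm4b rose from 56.9 ± 20.6 to 180 ± 56.6 CPM (log2 fold change 1.57 ± 0.36, edgeR adjusted p = 0.030). Igf2r, the receptor that carries mannose 6-phosphate proteins to lysosomes, was at 50.0 ± 22.4 CPM in endoderm and fell by 2.01 ± 0.46 on the log2 scale (adjusted p = 0.028). The medians of these lists were -0.71 for proteases, -0.05 for hydrolases, 0.12 for membrane proteins, -0.01 for the V-ATPase and 0.22 for sorting, beside -0.01 over all genes. All 7 FOXN1 targets rose, with log2 fold changes from 1.28 for Cxcl12 to 10.53 for Psmb11.

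In the comparison of all cells by stage the lists gave 0 of 7 proteases, 2 of 23 hydrolases, 1 of 12 membrane proteins (Laptm4b, higher at E12.5), 0 of 14 V-ATPase subunits and 0 of 14 sorting genes, beside 6.24% of all genes tested. Of the hydrolases Lipa, the lysosomal acid lipase, rose by 3.09 ± 0.75 on the log2 scale (edgeR adjusted p = 0.030). Between the Foxn1 classes 0 genes of these lists passed. Their medians were 0.42 for proteases, 0.31 for hydrolases, 0.21 for membrane proteins, 0.08 for the V-ATPase and -0.15 for sorting, beside 0.04 over all genes and 0.53 over the FOXN1 targets.

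In parathyroid against thymic cells, 1 of 23 hydrolases and activators and 2 of 11 membrane proteins passed, all higher in parathyroid cells, and 0 of 7 proteases, 0 of 14 V-ATPase subunits and 0 of 13 sorting genes, beside 2.88% of all genes tested. Grn, the progranulin gene, was at 405 ± 203 CPM in parathyroid and 58.4 ± 17.4 CPM in thymic cells (log2 difference 2.52 ± 0.49, edgeR adjusted p = 0.019). The tetraspanin gene Cd63 was at 818 ± 326 and 275 ± 109 CPM (1.43 ± 0.25, adjusted p = 0.010), and Tmem59 at 819 ± 182 and 297 ± 44.4 CPM (1.29 ± 0.27, adjusted p = 0.028). Of the 7 FOXN1 targets 6 were lower. List medians were 2.39 for proteases, 0.95 for hydrolases, -0.01 for membrane proteins, 0.36 for the V-ATPase and -1.04 for sorting, beside the median of -1.06 over all genes.

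**Figure D4:**
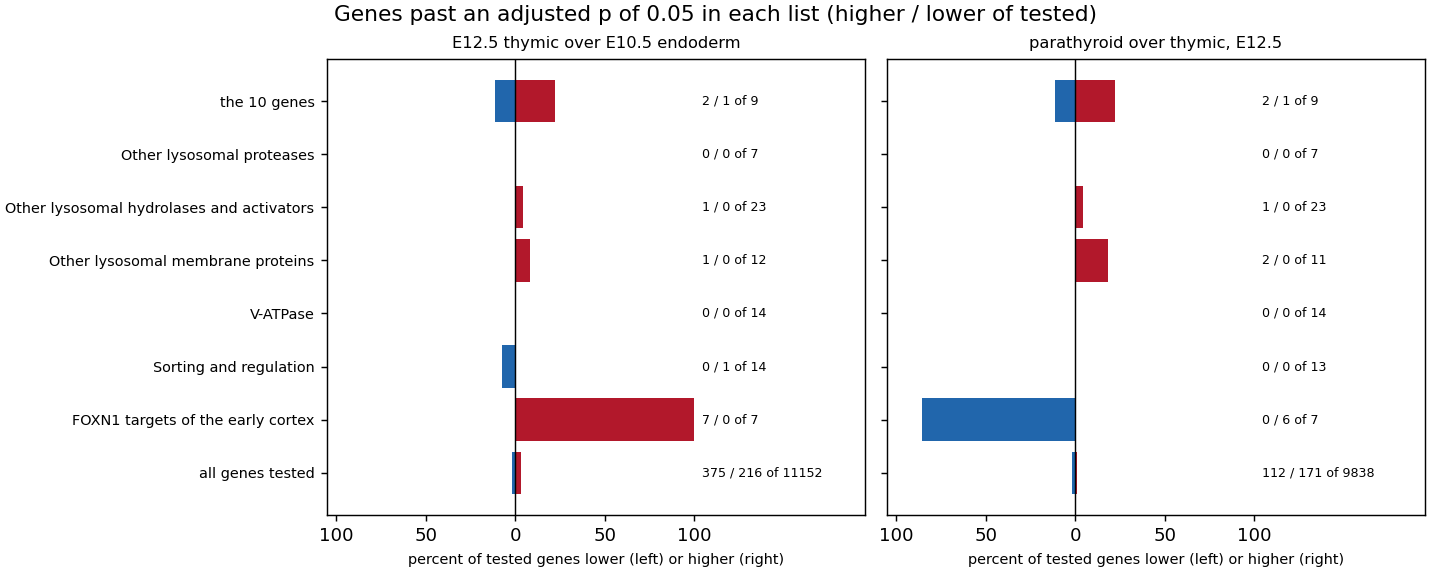
Share of the tested genes of each list past an adjusted p of 0.05 (edgeR), higher to the right in red and lower to the left in blue, for E12.5 thymic over E10.5 endoderm and for parathyroid over thymic cells of E12.5. Printed counts are higher and lower of those tested; the lysosomal lists have 0 to 2 calls each, while all 7 FOXN1 targets are higher in thymic cells than in endoderm and 6 of 7 are lower in parathyroid cells.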

How the data were processed

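Single EPCAM+PLET1+ cells were sorted into BD Precise WTA plates with a barcode per well, polyA RNA was reverse transcribed and amplified by PCR, and libraries were sequenced on a MiSeq. Per the labels and file headers, the authors aligned reads with STAR and counted them by HTSeq union rules in the BD Precise WTA Analysis Pipeline 2.0, on GRCm38.p6 with GENCODE vM18 (the processing notes name GRCm38.p5). They deposited read counts per gene and well without normalization, and molecule counts after the RSEC and DBEC adjustments. The 19 samples are sequencing runs, and each plate of the deposited table equalled the sum of 2 of its runs, so a plate counted as 1 replicate. Well names recur between plates because they are plate positions. No doublets were called, since cells were sorted singly.

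The study's limits were applied to protein-coding genes: at most 50% mitochondrial reads, 40000 to 400000 reads and 500 to 5000 features. The number of cells kept at each stage was close to, but not the same as, the number the study reported. Cells were classed by Chga (2000 CPM), Foxn1 (100 CPM) and 5 neural genes (Tubb3, Nefl, Stmn2, Elavl3 and Neurod1; at least 2 at 100 CPM), and reads were summed per plate and class of at least 3 cells. Genes that define a class were left out of the calls in comparisons that use it. Sums were tested with edgeR 4.0.16 (TMM, filterByExpr, robust quasi-likelihood, with limma 3.58.1), adjusted by Benjamini-Hochberg over all genes tested, with the plate as a block within E12.5. DESeq2 1.42.0 was an alternative test. Exact permutation tests used log2(CPM + 1). R 4.3.3 and Python 3.11.15 (numpy 2.4.6, pandas 2.3.3, scipy 1.17.1, matplotlib 3.10.9) were used, and scripts were tested on simulated data.

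Plate letters are not stated to pair the stages, so the stages were not paired in the reported fits. Residuals of same-letter plates had r of 0.10, 0.00 and 0.05 for a, c and d. Both class sums of an E12.5 plate come from the same library, yet r was only 0.05 to 0.18 between Foxn1 classes. It was 0.04 to 0.09 between parathyroid and thymic sums. These correlations therefore cannot tell paired from unpaired plates. Reads include amplification copies, so shares of cells with a molecule cover counting error only.

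The 10 genes and the gene lists were chosen with earlier results of these data known. Named genes were all 10, list genes past the threshold with up to 3 of the largest changes per direction, and the 5 genes most correlated with Ctsl, Ctsh and Cst3, some of which are not reported here. The individual FOXN1 targets between the Foxn1 classes, Fn1, the overlapping genes and the blood cell genes were named outside this rule, after their values were seen. Leaving out the 1 cell with blood genes, and leaving out the thymic cells with Krt5, Krt17 and Cldn4 in the parathyroid comparison, were chosen after the data were examined. Plate b of E12.5, with a single run and no place in the table, was used only where stated.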

Additional observations from a re-analysis of the deposited data

Results flagged for a closer look

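Each group of 4 plates was searched for a plate standing apart from the other 3. In 8 of 46 groups a plate stood apart, where chance gives about 1 in 20. That rate does not hold for 3 of the 8 (Ctsh and Ctsc in neural and Ctss in parathyroid cells), where the other 3 plates were at 0 and any read stands apart. In E10.5 endoderm, Ctsd was at 53.66 CPM on plate c (nearest plate 64.9 CPM) and Lamp2 at 63.22 CPM on plate a (nearest 31.6 CPM), the plate with the fewest molecules per cell. In E10.5 neural cells, Ctsh was at 10.67 CPM on plate b and Ctsc at 1.235 CPM on plate c, with 0 on the other plates in both cases. In Foxn1-high cells, Ctsh was at 19.29 CPM on plate a (nearest 1.78 CPM). In parathyroid cells, Ctsb was at 476.1 CPM on plate e (nearest 205 CPM), Ctsz at 637.4 CPM on plate d (nearest 1059 CPM), and Ctss at 0.503 CPM on plate a from its only read.

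Plate b of E12.5, a single run that entered no comparison above, had several of the genes above all 4 E10.5 plates. The share of all genes that lay so is not given here, and Ctsd, Ctsc and Cst3 had not passed the test by stage. Plate b was also shallow, with a median of 1536 molecules per cell against 3744 to 10841 on the other E12.5 plates. Over its 87 cells Ctsl was at 391.4 CPM, Lamp2 at 311.3 CPM, Ctsd at 101.7 CPM, Ctsc at 41.06 CPM, Ctsh at 21.91 CPM and Cst3 at 1226 CPM. By class, Ctsl was at 321 CPM in its 40 Foxn1-low cells, 556 CPM in its 35 Foxn1-high cells and 86.0 CPM in its 12 parathyroid cells. Ctsh was at 0 CPM in the 75 thymic cells of this plate and at 202 CPM in its parathyroid cells. Ctsz was at 55.5 CPM in thymic and 756 CPM in parathyroid cells of this plate, and Cst3 at 2966 CPM in parathyroid cells. Lamp2 was at 2.82 CPM in those 12 cells, below every other parathyroid sum. These are values of 1 plate with no replicate.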

How the results depend on the processing

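Of 589 values of the 10 genes under other settings, 534 kept their direction and their side of the threshold, 12 newly passed it, 10 no longer passed and 33 changed sign, none of the last in a difference that had passed. Ctsl and Lamp2 passed under every setting run against E10.5, as did Ctsl and Ctsz between parathyroid and thymic cells; the 10 losses were 8 for Ctsz against endoderm, Ctsh by stage with the replicate block, and Cst3 in parathyroid cells with DESeq2. Counts of called genes moved more. By stage there were 1269 with DESeq2 and 215 with the replicate block (718 in the reported fit). Fits against E10.5 with the replicate block kept only plates a, c and d of each stage. Against endoderm there were 1088 with DESeq2 and 131 with the replicate block (591), and 380 to 652 when 1 plate was left out, with 380 without plate b and 385 without plate c of E10.5. Between the Foxn1 classes there were 90 with DESeq2, of which 1 is among the 10 genes, and 2 with DBEC molecules. Between parathyroid and thymic cells there were 1863 with DESeq2 (5 of the 10 genes), 617 with DBEC molecules (7 of the 10) and 813 with no replicate block (283), and 150 to 164 when plate d, c, a or e was left out. The cause of these moves was not tested.

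The sign changes were as follows. By stage, DBEC molecules gave -0.016 for Ctsb, -0.030 for Ctsd and -0.049 for Ctsz, thinning of cells to equal reads gave -0.015 for Ctsd, and leaving out 1 plate gave -0.14 to 0.15 for Ctsd. Against endoderm, Cst3 was 0.011 without the filter on low counts, 0.046 without limits on cells, 0.0049 with thinned cells and -0.15 to 0.13 when 1 plate was left out. Ctsb was -0.14 with DBEC molecules, -0.058 with the replicate block and -0.11 to 0.33 when 1 plate was left out, and Ctsc was -0.028 without limits on cells. Between the Foxn1 classes, Ctsz was -0.10 with thinned cells, -0.12 with no replicate block, -0.50 with plate b added, -0.056 without cells with Krt5, Krt17 and Cldn4 and -0.24 to 0.41 when 1 plate was left out. Lamp2 under the same settings was -0.0077, -0.026, -0.0026, -0.12 and -0.11 to 0.27, and Ctsd with plate b added was -0.31. The replicate block changed no call of the 10 genes other than those of Ctsh by stage, Ctsz against endoderm and, where it was left out, Ctsh in parathyroid cells. Against E10.5 the blocked fits also lacked plate b of E10.5 and plate e of E12.5, so the effect of the block alone was not tested.

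Depth limits the rarer genes most. Ctsh and Ctsc were read in 39 and 54 cells, parathyroid sums rest on 6 to 15 cells, and 1 Ctss read allows no comparison. The classes were set by thresholds on single genes, Foxn1 reads are sparse, and 68 thymic cells had no Foxn1 read.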

Other observations

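Genes that work with the cathepsins in antigen presentation were also measured. Cd74, the invariant chain that cysteine cathepsins cut, was listed at 0 on all E10.5 plates and at 22.2 ± 7.92 CPM in E12.5 thymic cells (edgeR adjusted p = 0.00102, n = 4 plates). H2-Ab1, an MHC class II chain, was at 4.84 ± 5.43 CPM in endoderm and 304 ± 77.2 CPM in thymic cells (log2 fold change 5.94 ± 1.10, edgeR adjusted p = 0.00964), and H2-Aa was at 0.0227 ± 0.0454 and 56.3 ± 16.5 CPM. These were 3 of the 5 genes tested of a list of 7, all of them higher, beside 5.3% of all genes tested. Between the Foxn1 classes 0 of 6 passed, with Cd74 at 18.6 ± 4.69 CPM in Foxn1-low and 25.1 ± 12.2 CPM in Foxn1-high cells. In parathyroid cells H2-Ab1 was at 12.9 ± 18.5 CPM, lower than in thymic cells (edgeR adjusted p = 0.00904). It was the 1 gene called of 4 tested, beside 2.88% of all genes tested in that comparison.

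Cstb, which encodes the intracellular cathepsin inhibitor stefin B, rose from 106 ± 22.1 CPM in endoderm to 291 ± 74.5 CPM in thymic cells (log2 fold change 1.41 ± 0.27, edgeR adjusted p = 0.0116). Between the Foxn1 classes it was at 319 ± 105 and 274 ± 53.4 CPM, and the difference did not pass. It was at 146 ± 110 CPM in parathyroid cells (log2 difference -1.42, edgeR adjusted p = 0.186). Of the 8 placental cathepsins encoded near Ctsl, none had enough reads to be tested in any of the 4 comparisons.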
